A study of Mus musculus with 4 samples.

Results

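The genes described here encode proteins of the endoplasmic reticulum (ER) that fold, translocate, trim and degrade secretory and membrane proteins. They are 35 genes chosen by symbol for these functions, out of 24411 gene symbols in the deposited count table, and all 35 were measured well enough to be tested. The choice was made with earlier results of these data known. By role they comprised 9 soluble chaperones and cochaperones, 6 lectin chaperones and disulfide isomerases, 7 genes of ER-associated degradation, 7 of the translocation channel and its partner complex, 4 of the signal peptidase, and 2 stress sensors. RNA was sequenced from bone marrow pro-B cells, early B cell precursors, sorted as cells positive for B220, CD43 and heat-stable antigen (CD24) from 4 C57BL/6 mice. Knockout mice 51 and 63 carried floxed alleles of Tnpo3 (Tnpo3fl/fl), which encodes transportin 3, a nuclear import receptor for serine- and arginine-rich splicing factors. Control mice 55 and 69 had intact Tnpo3 (Tnpo3+/+). All 4 mice carried mb1Cre, a Cre recombinase driven from the Cd79a locus and so active in the B lineage. No age is stated in the labels, and the counts cannot tell cells with deleted alleles from cells that kept them.

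Proteins bound for secretion or for membranes enter the ER through the Sec61 channel, lose their signal sequence to the signal peptidase, and fold with the help of Hsp70 and Hsp90 chaperones, lectin chaperones and disulfide isomerases. Chains that fail to fold are passed back to the cytosol and degraded, a route built around the ubiquitin ligase encoded by Syvn1. When unfolded proteins accumulate, the sensors IRE1 (encoded by Ern1), ATF6 and PERK (encoded by Eif2ak3) start the unfolded protein response, and many of its target genes encode the same chaperones and degradation factors. In the B lineage this machinery is best known from plasma cells, where XBP1, the transcription factor downstream of IRE1, expands the ER.

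The libraries held 26211372 to 40647384 counts. Tnpo3 was at 79.7 and 68.8 counts per 1000000 library counts (CPM) in knockouts 51 and 63, against 159 and 148 CPM in controls 55 and 69, a log2 fold change of -1.05 ± 0.14 (SE) with an adjusted p of 0.0108 in edgeR. CPM here are counts scaled by the TMM method, and n = 2 mice per genotype throughout. The spread behind a p-value comes from these few mice and, in edgeR, also from a trend over all genes tested. Cd24a, which encodes the heat-stable antigen used in the sort, was at 488 and 583 CPM in knockouts and at 2284 and 1905 CPM in controls, and fell. Spn, which encodes CD43, rose to 444 and 396 CPM in knockouts, against 159 and 261 CPM in controls (log2 fold change 0.998 ± 0.26, adjusted p 0.0492 in edgeR). Ptprc, of which B220 is an isoform, was at 911 and 1009 CPM in knockouts and at 749.8 and 371 CPM in controls, and did not pass (0.78 ± 0.35 on the log2 scale). Lists of cell type markers moved with genotype in the same libraries, in which 11.3% of all genes tested rose and 10.9% fell. Of 14 plasmacytoid dendritic cell markers, 12 rose and 0 fell, and their summed level was 10601 and 14399 CPM in knockouts, against 3637 and 1693 CPM in controls. Of 14 B-lineage markers, 0 rose and 10 fell, with sums of 3834 and 3198 CPM in knockouts and of 10832 and 12498 CPM in controls. Conventional dendritic cell, NK and T cell markers rose in 7 of 11, 7 of 11 and 5 of 10, and 0 of each fell. Sums of these lists, in that order, were 4202 and 4673, 1132 and 267, and 986 and 818 CPM in knockouts 51 and 63. In controls 55 and 69 the sums were 2634 and 1333, 48.1 and 43.97, and 95.04 and 99.6 CPM. The NK rise came mostly from knockout 51, where all NK markers but Klrd1 were higher than in knockout 63. Cd3e, Cd3d and Cd3g of the T cell list were also higher in knockout 51 than in knockout 63. Among granulocyte and monocyte markers 11 of 15 fell and 3 rose, and 6 of 8 erythroid markers fell. Of 10 plasma cell markers 1 rose (Xbp1, described below) and 2 fell, and the median log2 fold change was 0.57. Both knockouts lay above both controls for 3 of them and below for 3, and 4 overlapped. Their sums were 888 and 1252 CPM in knockouts and 1452 and 1358 CPM in controls. These sums weigh the most abundant genes most and do not give the direction of the list. None of these markers was at 0 in all libraries. The part of these marker changes in the changes of the ER genes was not tested, and in bulk RNA fewer cells of a type and less RNA per cell cannot be told apart.

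Most of the folding and translocation genes were higher in knockout cells. Of the 7 degradation genes 0 rose and 1 fell, near the shares of all genes given below. At an adjusted p under 0.05 in edgeR's quasi-likelihood test over 13507 genes, 20 of the 35 ER genes rose, 1 fell and 14 did not pass. Over all genes tested, 11.3% rose and 10.9% fell, and among the 9557 genes with a mean CPM at least that of the lowest ER gene the shares were 11.5% and 11.3%. Medians of the log2 fold change were 0.84 for the 35 genes and -0.02 for all genes tested. The 35 genes were chosen with earlier results of these data known, so their contrast with all genes is not a separate test. For 26 of the 35 genes both knockouts lay above both controls, against 33% of all genes, and for 2 genes both lay below, against 34.6%. The summed level of the 35 genes was 9800 and 11820 CPM in knockouts 51 and 63, and 7452 and 6254 CPM in controls 55 and 69. Knockout 63 was the higher of the knockouts in every role but degradation. Its library carried part of the count of calls: without it 5 of the 20 genes passed, and all 20 kept a positive log2 fold change, from 0.62 to 2.19. The 15 that no longer passed had adjusted p-values of 0.0501 to 0.161, and the share of all genes called higher was then 5.33%. Without knockout 51, 15 of the 35 were called higher, against 6.49% of all genes. A test on the log2 of the authors' normalized values called 13 of the 35 higher, against 6.88% of all genes.

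**Figure D1:**
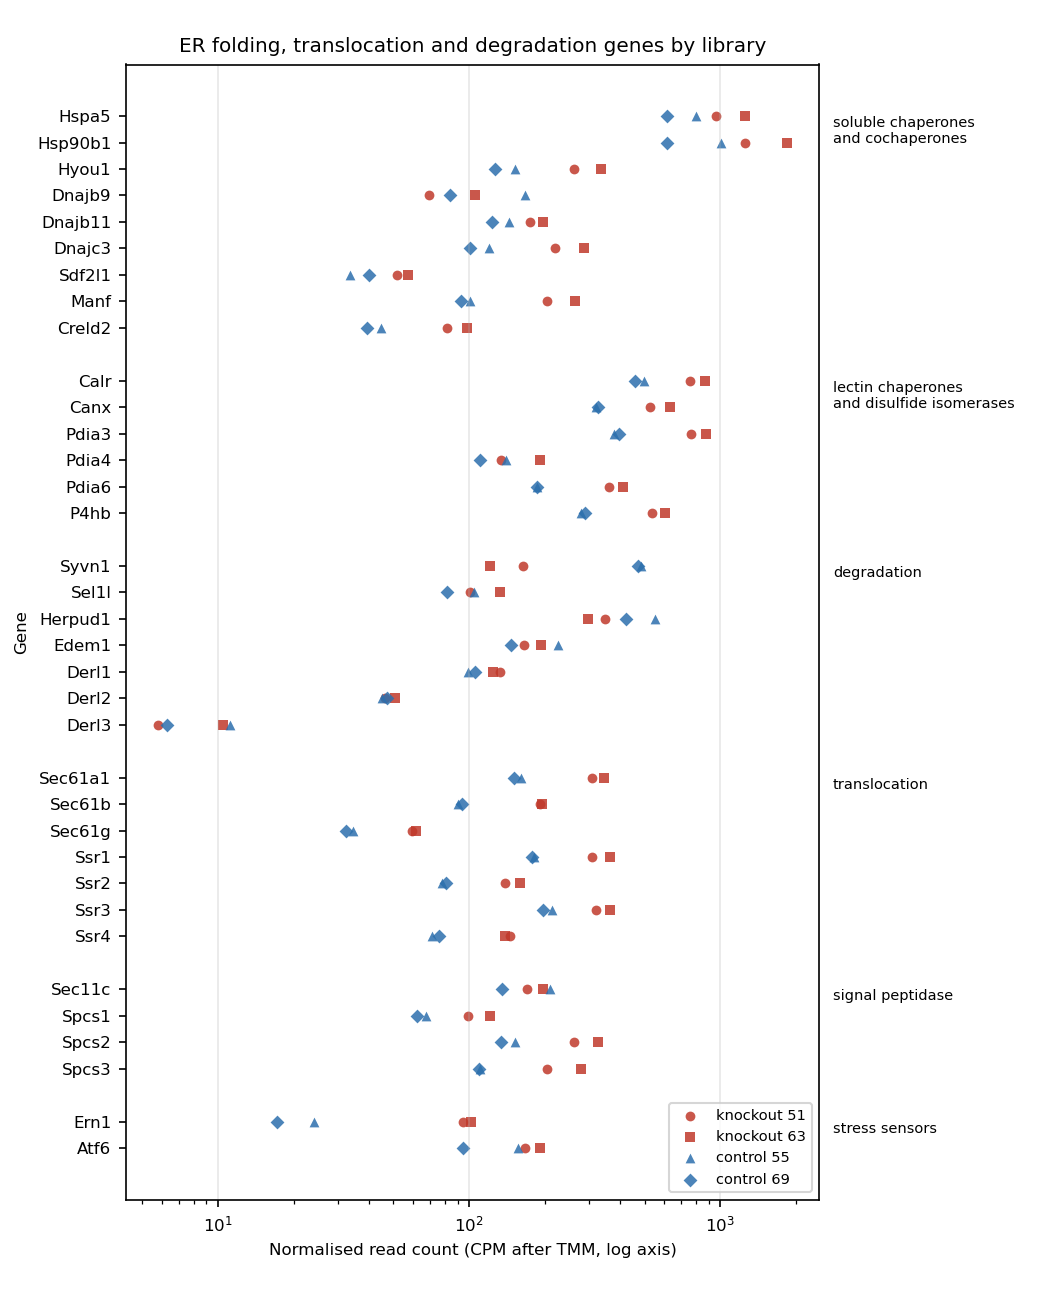
Normalised read count (CPM after TMM scaling, log axis) of each of the 35 genes in each library, grouped by role, with knockouts in red and controls in blue. Red points lie to the right of blue ones for all 7 translocation genes, and to the left for Syvn1.

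Xist and Y-linked counts show that each genotype held 1 female (knockout 63 and control 55) and 1 male (knockout 51 and control 69). For all 20 genes that rose both knockouts lay above both controls, so each was necessarily higher in the knockout in both sexes. This is not a separate test. Across the 35 genes, 28 were higher in both sexes, 22 of them by at least 1.5-fold, and 4 were lower in both (Syvn1, Herpud1, Dnajb9 and Derl3). The shares of all genes higher or lower in both sexes were not computed, so these counts have no background beside them. Both knockouts lay above both controls for 33% of all genes, and below for 34.6%. Edem1, Derl2 and Sec11c differed in sign between the sexes.

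Promoter sequence was available from RefSeq (GRCm38.p6) for 27 of the 35 genes, as windows from 250 bases before to 50 bases after the annotated start. These windows are shown because the ER stress response element (ERSE, CCAAT and CCACG separated by any 9 bases), which binds NF-Y with ATF6 or XBP1, is a well known sequence of ER chaperone promoters. Searched on both strands, it was found in the windows of 9 of the 27 genes, namely Hspa5, Hsp90b1, Dnajc3, Creld2, Calr, Canx, Pdia6, Syvn1 and Derl3. Among all 32851 windows, 39 (0.119%) held it. The shorter ERSE-II (ATTGG and CCACG separated by any 1 base) was found in the windows of Herpud1 and Dnajb11, and in 0.0365% of all windows. The letters of the XBP1-binding element UPRE (TGACGTGG) were in none of the 27 and in 0.676% of all windows. The 120 bases before the start follow for 4 genes described below, namely Hspa5, Dnajc3, Herpud1 and Syvn1, each read on the strand of the gene and with the fixed letters of ERSE or ERSE-II in capitals.
Hspa5, chr2:34771970-34772089, plus strand: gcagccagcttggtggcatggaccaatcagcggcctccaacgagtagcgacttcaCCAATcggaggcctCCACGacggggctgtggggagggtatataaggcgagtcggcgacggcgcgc
Dnajc3, chr14:118937812-118937931, plus strand: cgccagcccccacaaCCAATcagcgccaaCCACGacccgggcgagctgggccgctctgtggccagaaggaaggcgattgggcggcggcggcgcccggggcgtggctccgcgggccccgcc
Herpud1, chr8:94386309-94386428, plus strand: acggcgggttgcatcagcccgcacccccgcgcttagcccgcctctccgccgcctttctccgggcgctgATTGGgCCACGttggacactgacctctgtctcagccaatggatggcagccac
Syvn1, chr19:6046456-6046575, plus strand: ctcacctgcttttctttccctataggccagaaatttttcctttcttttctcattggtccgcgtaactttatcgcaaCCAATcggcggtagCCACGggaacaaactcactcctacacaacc
The element lay at bases -65 to -47 from the start in Hspa5, at -105 to -87 in Dnajc3 and at -44 to -26 in Syvn1, in the same orientation in all 3. ERSE-II lay at -52 to -42 in Herpud1. Of the 9 genes with an ERSE, 5 rose, 1 fell and 3 did not pass, with a median log2 fold change of 0.84. Of the 18 with a window and no ERSE, 10 rose, 0 fell and 8 did not pass, with a median of 0.75.

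Among the soluble chaperones, 4 of 9 rose and 0 fell, while 11.3% of all genes rose and 10.9% fell. In so few genes, 0 falls is near that share. Those 4 were Manf, Dnajc3, Hyou1 and Creld2, each more than doubled. Manf, a small secreted ER protein that binds the Hsp70 chaperone BiP, was at 204 and 264 CPM in knockouts 51 and 63, against 101 and 93.0 CPM in controls 55 and 69. Its log2 fold change of 1.27 ± 0.17 (SE) passed with an adjusted p of 0.0111 in edgeR, and it passed under every alternative tried. The annotated gene (GRCm38 chromosome 9, 106838312 to 106891979) shares exonic bases with Rbm15b and Dcaf1; Rbm15b had a log2 fold change of 0.41 that did not pass, and Dcaf1 was not tested. Dnajc3, a J-domain cochaperone of BiP, was at 221 and 286 CPM in knockouts and at 120 and 101 CPM in controls (log2 fold change 1.20 ± 0.19, adjusted p 0.0148 in edgeR). Hyou1, an Hsp70-related protein that exchanges nucleotide on BiP, was at 262 and 335 CPM in knockouts and at 152 and 126 CPM in controls. Creld2, an ER protein with epidermal growth factor repeats, was at 82.0 and 97.9 CPM in knockouts and at 44.6 and 39.3 CPM in controls. Both rose 2.14-fold, with SEs of 0.19 and 0.16 on the log2 scale and edgeR adjusted p-values of 0.0176 and 0.0130. Dnajc3, Hyou1 and Creld2 did not pass without knockout 63, nor did Hyou1 on the authors' normalized values.

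The Hsp70 and Hsp90 chaperones themselves varied more between mice. Hspa5 encodes BiP itself, the central Hsp70 chaperone of the ER, and was at 966 and 1256 CPM in knockouts 51 and 63, against 805 and 616 CPM in controls 55 and 69. Hsp90b1, which encodes the Hsp90 chaperone GRP94, was at 1252 and 1855 CPM in knockouts and at 1006 and 616 CPM in controls. For both genes the knockouts lay above the controls, but the spread within a genotype was large, and neither passed: log2 fold changes were 0.65 ± 0.23 and 0.94 ± 0.33, with edgeR adjusted p-values of 0.106 and 0.0971. Both passed with DESeq2 and with sex as a block, Hsp90b1 also without a filter and without control 55. Dnajb11, a J-domain partner of BiP, and Sdf2l1, which acts with it, had log2 fold changes of 0.47 ± 0.15 and 0.57 ± 0.17 and did not pass (0.0753 and 0.0681 as adjusted p in edgeR). Both passed with sex as a block, Dnajb11 also without control 55, and Sdf2l1 also with DESeq2 and without control 69. Dnajb9, the J-domain protein that represses IRE1 and serves degradation, was at 69.5 and 105.9 CPM in knockouts and at 166 and 84.1 CPM in controls. These groups overlapped, and the log2 fold change of -0.51 ± 0.37 did not pass. Without control 55 it was 0.09, and without control 69 it was -0.93 and passed (edgeR adjusted p of 0.0301).

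Of the 6 lectin chaperones and disulfide isomerases, 5 rose and 0 fell, while 11.3% of all genes rose and 10.9% fell. In the calnexin cycle monoglucosylated glycoproteins are held for folding, and its lectins and their partner isomerase, 3 of these 6 genes, were all higher. The glucose trimming enzymes of the cycle are not among the 6. Calr, the soluble lectin chaperone calreticulin, was at 761 and 870 CPM in knockouts 51 and 63, against 499 and 460 CPM in controls 55 and 69. Canx, its membrane-bound counterpart calnexin, was at 525 and 634 CPM in knockouts and at 320.0 and 327 CPM in controls. Pdia3, the disulfide isomerase ERp57 that works with both lectins, was at 768 and 883 CPM in knockouts and at 379 and 397 CPM in controls. The ratio of Canx to Calr counts was 0.690 and 0.729 in knockouts and 0.642 and 0.710 in controls, which overlapped. Log2 fold changes were 0.77 ± 0.17 for Calr, 0.84 ± 0.17 for Canx and 1.09 ± 0.17 for Pdia3, with edgeR adjusted p-values of 0.0325, 0.0257 and 0.0147. Calr and Canx no longer passed without either knockout or on the authors' normalized values, and Calr not without control 69. Pdia3 did not pass without knockout 63.

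Among the other isomerases, Pdia6 was at 360.2 and 409 CPM in knockouts and at 186 CPM in each control, a log2 fold change of 1.05 ± 0.15. P4hb, protein disulfide isomerase itself and also a subunit of collagen prolyl hydroxylase, was at 535 and 601 CPM in knockouts and at 279 and 290.0 CPM in controls (0.998 ± 0.16). Both passed, with edgeR adjusted p-values of 0.0114 and 0.0148, but not without knockout 63. Pdia4 was the exception, at 134 and 192 CPM in knockouts and at 140.2 and 111 CPM in controls. Its groups overlapped, its log2 fold change of 0.37 ± 0.22 did not pass (adjusted p 0.278 in edgeR), and it passed under no alternative. The ratio of Pdia4 to Pdia6 counts, which no scaling enters, was 0.371 and 0.469 in knockouts and 0.753 and 0.597 in controls.

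**Figure D2:**
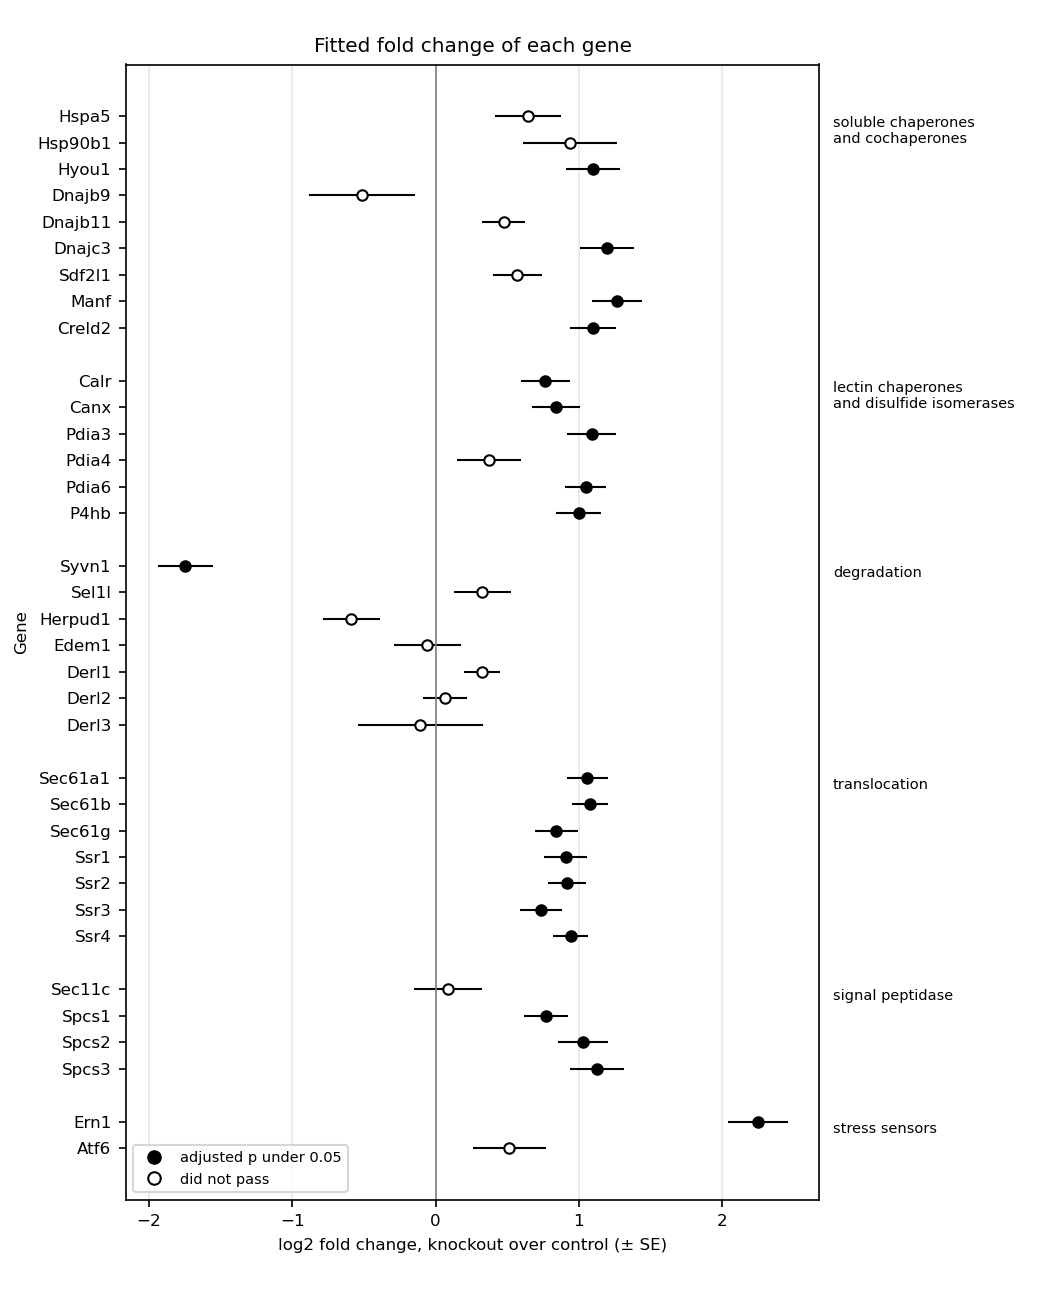
Fitted log2 fold change (knockout over control) of each gene with its SE, grouped by role; filled points passed an adjusted p of 0.05 in edgeR's quasi-likelihood test. The translocation genes lie between 0.74 and 1.08, Ern1 stands at 2.25 and Syvn1 at -1.75.

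The translocation genes moved as a block. All 7 rose, against 11.3% of all genes, with log2 fold changes from 0.74 to 1.08. Sec61b, the small tail-anchored subunit of the channel (chromosome 4, 47474658 to 47483242), was at 191 and 196 CPM in knockouts 51 and 63, against 90.2 and 93.5 CPM in controls 55 and 69. Its log2 fold change was 1.08 ± 0.12, with an adjusted p of 0.00770 in edgeR. The pore-forming subunit gene Sec61a1 was at 308 and 345 CPM in knockouts and at 162 and 152 CPM in controls (1.06 ± 0.14). Sec61g, the third subunit, was at 59.2 and 61.3 CPM in knockouts and at 34.7 and 32.5 CPM in controls (0.84 ± 0.15). For all 3 the spread within a genotype was small beside the difference. The ratio of Sec61b to Sec61a1 counts overlapped between genotypes, at 0.621 and 0.569 in knockouts and 0.558 and 0.617 in controls. That of Sec61g to Sec61a1 was slightly lower in knockouts, at 0.192 and 0.178, against 0.215 and 0.214 in controls.

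The translocon-associated protein complex, which sits beside the channel and helps some signal sequences open it, has 4 subunits encoded by Ssr1 to Ssr4. Ssr1 was at 310 and 366 CPM in knockouts and at 181 and 179 CPM in controls. Ssr2 was at 139 and 160 CPM in knockouts and at 77.9 and 80.6 CPM in controls. Ssr3 was at 321 and 364 CPM in knockouts and at 214 and 198 CPM in controls, and Ssr4 at 145 and 139 CPM in knockouts and at 71.5 and 76.2 CPM in controls. Log2 fold changes were 0.91, 0.92, 0.74 and 0.94, with SEs of 0.12 to 0.15. Ssr3, the lowest, was also lower relative to Ssr1, at a ratio of 1.04 and 0.995 in knockouts and of 1.18 and 1.11 in controls. The ratios of Ssr2 and of Ssr4 to Ssr1 overlapped between genotypes. Sec61a1, Sec61b and Ssr4 passed under every alternative. Sec61g, Ssr1, Ssr2 and Ssr3 did not pass without knockout 63, nor did Sec61g and Ssr3 without knockout 51. Ssr3 also did not pass on the authors' normalized values.

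The signal peptidase, which cuts the signal sequence from the entering chain, has accessory and catalytic subunits. Spcs1, Spcs2 and Spcs3, which encode accessory subunits, rose, with log2 fold changes of 0.77 ± 0.16, 1.03 ± 0.17 and 1.13 ± 0.19 and edgeR adjusted p-values of 0.0257, 0.0166 and 0.0163. Spcs1, Spcs2 and Spcs3 did not pass without knockout 63 or on the authors' normalized values, nor did Spcs1 without knockout 51. Spcs3 was at 204 and 278 CPM in knockouts and at 111 and 110 CPM in controls. Sec11c, which encodes a catalytic subunit, was at 170 and 197 CPM in knockouts and at 210 and 135 CPM in controls. Its groups overlapped, and the log2 fold change of 0.09 ± 0.24 did not pass in edgeR (adjusted p 0.814). Sec11a, named here as the gene of the other catalytic subunit, was at 79.0 and 81.5 CPM in knockouts and at 74.9 and 71.2 CPM in controls, and its log2 fold change of 0.14 ± 0.13 did not pass either. Counts of Sec11c relative to Spcs2 were 0.652 and 0.606 in knockouts and 1.37 and 1.01 in controls, while the ratio of Sec11c to Sec11a overlapped between genotypes.

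**Figure D3:**
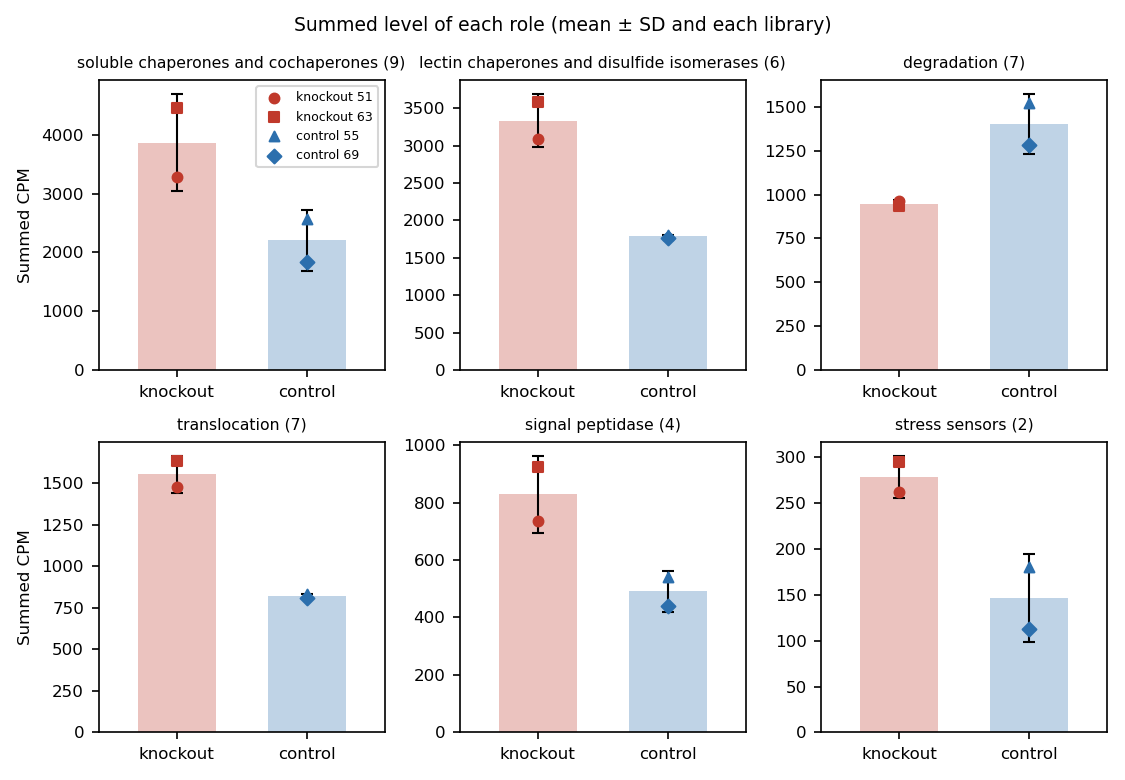
Summed CPM of the genes of each role, with knockout left and control right; bars show the mean and SD of 2 libraries, points the libraries, and the number of genes is in each title. Translocation genes sum to 1474 and 1630 CPM in knockouts and 830 and 811 CPM in controls, and degradation genes to 964 and 932 CPM in knockouts and 1523 and 1281 CPM in controls.

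The 7 degradation genes showed no such rise as a set. Of these 0 rose, 1 fell and 6 did not pass, while 11.3% of all genes rose and 10.9% fell. In so few genes these counts are near those shares, and the median log2 fold change was -0.06. Of 24 other degradation genes 5 rose and 0 fell, so the 7 do not stand for the whole role. Syvn1 encodes HRD1, the ubiquitin ligase through which misfolded proteins leave the ER (chromosome 19, 6046576 to 6053712). It was at 164 and 121 CPM in knockouts 51 and 63, against 486 and 471 CPM in controls 55 and 69. Both knockouts lay far below both controls, and the level in knockouts was 29.8% of that in controls. The log2 fold change of -1.75 ± 0.19 passed in edgeR (adjusted p 0.00751) and under every alternative, where it ranged from -1.98 to -1.54. Exons of Syvn1 overlap those of Mrpl49 on the opposite strand, which also fell (-0.66, adjusted p 0.0336 in edgeR). How the counting assigned reads in that overlap is not given in the sources used here.

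Sel1l, the membrane partner that holds HRD1 in its complex, did not move with it. Its level was 101 and 133 CPM in knockouts and 104 and 82.0 CPM in controls, which overlapped (0.33 ± 0.20, adjusted p 0.288 in edgeR). There were 1.62 and 0.913 Syvn1 counts per Sel1l count in knockouts, and 4.65 and 5.74 in controls. Herpud1, a ubiquitin-like membrane protein that organizes the complex, was at 349 and 298 CPM in knockouts and at 551 and 421 CPM in controls. Both knockouts lay below both controls, but the log2 fold change of -0.59 ± 0.20 did not pass (adjusted p 0.0899 in edgeR). It passed without control 69, at -0.77. Relative to Hspa5, Herpud1 counts were 0.361 and 0.238 in knockouts and 0.684 in each control.

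The remaining degradation genes did not pass. Edem1, a lectin-like factor that marks misfolded glycoproteins, was at 166 and 194 CPM in knockouts and at 226 and 147 CPM in controls (-0.06 ± 0.23). The derlins are membrane proteins of the exit channel. Derl1 was at 133 and 125 CPM in knockouts and at 99.5 and 105.8 CPM in controls (0.33 ± 0.12), and Derl2 at 46.1 and 50.6 CPM in knockouts and at 45.1 and 47.3 CPM in controls (0.07 ± 0.15). Derl3, the derlin typical of secretory cells, had the lowest CPM of the 35 genes, 5.75 and 10.5 CPM in knockouts and 11.2 and 6.28 CPM in controls. Its 2 libraries per genotype differed nearly as much as 2-fold, and its log2 fold change of -0.11 ± 0.44 says little in either direction. None of these 4 genes passed under any alternative.

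**Figure D4:**
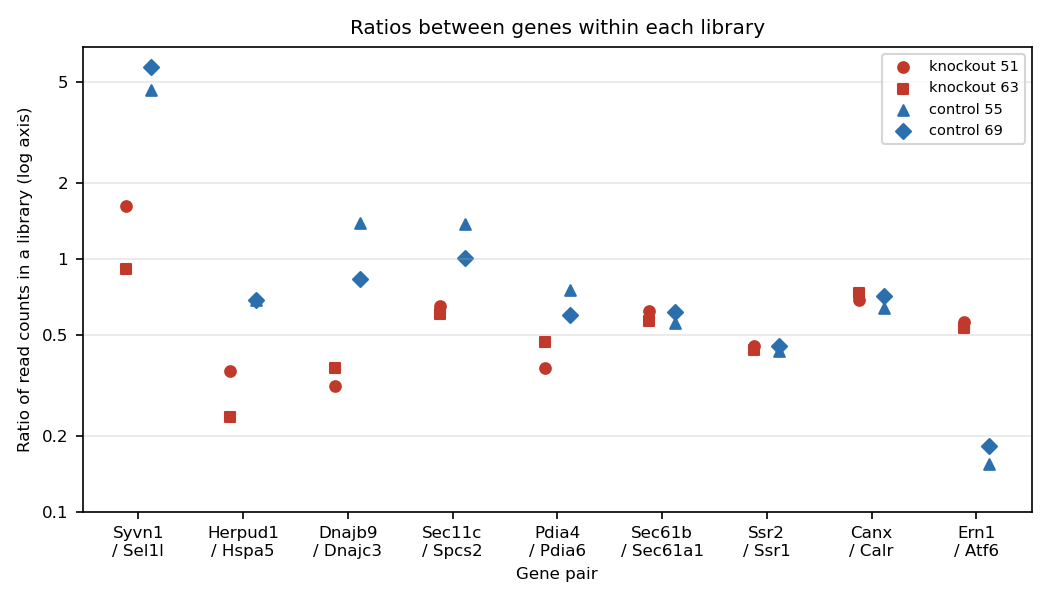
Ratio of the read counts of 2 genes within each library (log axis), knockouts in red left of controls in blue. Ratios of subunits such as Sec61b to Sec61a1 and Ssr2 to Ssr1 overlap between genotypes, while Syvn1 to Sel1l, Herpud1 to Hspa5, Dnajb9 to Dnajc3, Sec11c to Spcs2 and Pdia4 to Pdia6 are lower in both knockouts, and Ern1 to Atf6 is higher.

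The largest rise among the 35 genes was that of a sensor. Ern1 encodes IRE1, the kinase and endoribonuclease that splices Xbp1 messenger RNA (chromosome 11, 106394650 to 106487852). It was at 94.4 and 102 CPM in knockouts 51 and 63, against 24.1 and 17.2 CPM in controls 55 and 69. The fitted change was 4.75-fold, a log2 fold change of 2.25 ± 0.21 with an adjusted p of 0.00601 in edgeR, and it passed under every alternative (2.03 to 2.54). Atf6, the sensor that is itself cut into a transcription factor, was at 167 and 192 CPM in knockouts and at 156 and 95.04 CPM in controls. Its log2 fold change of 0.51 ± 0.26 did not pass (adjusted p 0.203 in edgeR), and it passed without control 55 and with sex as a block. The ratio of Ern1 to Atf6 counts was 0.565 and 0.531 in knockouts and 0.154 and 0.181 in controls.

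Regulators outside the 35 genes belong to different branches of the stress response. Xbp1, the target of IRE1, rose to 319 and 413 CPM in knockouts, against 120 and 93.6 CPM in controls (log2 fold change 1.78 ± 0.21, edgeR adjusted p 0.00826). Gene counts do not separate its spliced from its unspliced form. Wfs1, an ER membrane protein gene known as a target of the response, rose by 2.84 ± 0.24, at 60.2 and 64.5 CPM in knockouts and 10.3 and 7.10 CPM in controls. On the PERK branch, Eif2ak3, the sensor itself, fell to 73.3 and 88.5 CPM in knockouts, against 191 and 164 CPM in controls (-1.14 ± 0.16, adjusted p 0.0122 in edgeR, and 0.0515 without knockout 51). Ppp1r15a, the phosphatase subunit that reverses PERK signalling, fell by 1.53 ± 0.18 on the log2 scale, and Atf3, a stress-induced transcription factor, fell by 2.73 ± 0.34. Atf4 and Ddit3, the transcription factors of that branch, missed the threshold, at log2 fold changes of -0.38 ± 0.15 and -0.82 ± 0.27 (0.127 and 0.0876 as adjusted p in edgeR). Ddit3 passed with DESeq2 and without control 69. Of 24 tested regulators 6 rose, 4 fell and 14 did not pass, with a median of -0.01. Shares over all genes were 11.3% higher and 10.9% lower.

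The rest of the secretory pathway was read from 6 lists by function, of which 153 genes were tested: 40 rose, 7 fell and 106 did not pass, with a median log2 fold change of 0.29. Among all genes tested 11.3% rose and 10.9% fell, with a median of -0.02. N-glycosylation and glucose trimming had the highest median of the 6. Of its 20 genes 9 rose and 1 fell, with a median of 0.59. Both knockouts lay above both controls for 19, against 33% of all genes. The oligosaccharyltransferase subunit genes Ddost, Stt3a, Magt1 and Rpn2 rose by 1.19 ± 0.15, 1.03 ± 0.14, 1.33 ± 0.19 and 0.98 ± 0.14. Among 27 other folding genes 10 rose and 1 fell, with a median of 0.41. Sil1, a nucleotide exchange factor of BiP, was at 53.0 and 59.4 CPM in knockouts and at 20.5 and 22.2 CPM in controls, and Txndc5, a thioredoxin-like isomerase, at 421 and 461 CPM in knockouts and at 169 and 116 CPM in controls. Ppib, a prolyl isomerase, and Cnpy3, a cochaperone of GRP94 for Toll-like receptors, rose by 0.85 ± 0.13 and 0.91 ± 0.15. Mzb1, an ER protein of B and plasma cells that assists antibody assembly and is also on the plasma cell marker list, was at 149.7 and 165 CPM in knockouts and at 208 and 359.5 CPM in controls. Both knockouts lay below both controls, and its log2 fold change of -0.85 ± 0.28 missed the threshold (adjusted p 0.0817 in edgeR). It passed with DESeq2, without a filter, with sex as a block and without control 55.

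The remaining lists moved less. Of 26 other targeting and translocation genes, 3 rose and 1 fell, with a median of 0.15. That share of rises is near the 11.3% of all genes. The one that fell was Sec63, the J-domain partner of the channel, at 154 and 169 CPM in knockouts and 279 and 259 CPM in controls (-0.74 ± 0.14), and Emc3, a subunit of the ER membrane insertase, rose by 0.96 ± 0.15. Sec63 did not pass without either knockout, and Emc3 not without knockout 63. Emc10, another insertase subunit, and Wrb, a receptor for tail-anchored proteins, also rose, by 0.68 ± 0.16 and 1.18 ± 0.26, and neither passed without either knockout or without control 55. Of 24 other degradation genes 5 rose and 0 fell, with a median of 0.15. Edem2, which starts mannose trimming of misfolded glycoproteins, was at 155 and 154 CPM in knockouts and at 50.9 and 43.9 CPM in controls (1.70 ± 0.14, adjusted p 0.00497 in edgeR). The lectin gene Os9 rose by 0.65 ± 0.13, and Vimp, a selenoprotein of the exit channel, by 1.29 ± 0.33. Neither Os9 nor Vimp passed without knockout 63 or on the authors' normalized values, nor did Os9 without knockout 51 or Vimp with a stricter filter. In ER to Golgi transport 7 of 32 genes rose and 0 fell, with a median of 0.23. Sec24d, a cargo adaptor of the COPII coat, was at 134 and 177 CPM in knockouts and at 26.8 and 14.5 CPM in controls (2.91 ± 0.34). The cargo receptor genes Surf4, Tmed2 and Tmed10 rose by 1.19 ± 0.15, 1.04 ± 0.14 and 1.05 ± 0.15. Without knockout 63, Tmed2 and Tmed10 did not pass, nor did Stt3a, Rpn2, Ppib and Cnpy3 of the lists above. Ppib also did not pass without knockout 51, nor Cnpy3, Sec63, Emc10 and Wrb on the authors' normalized values.

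**Figure D5:**
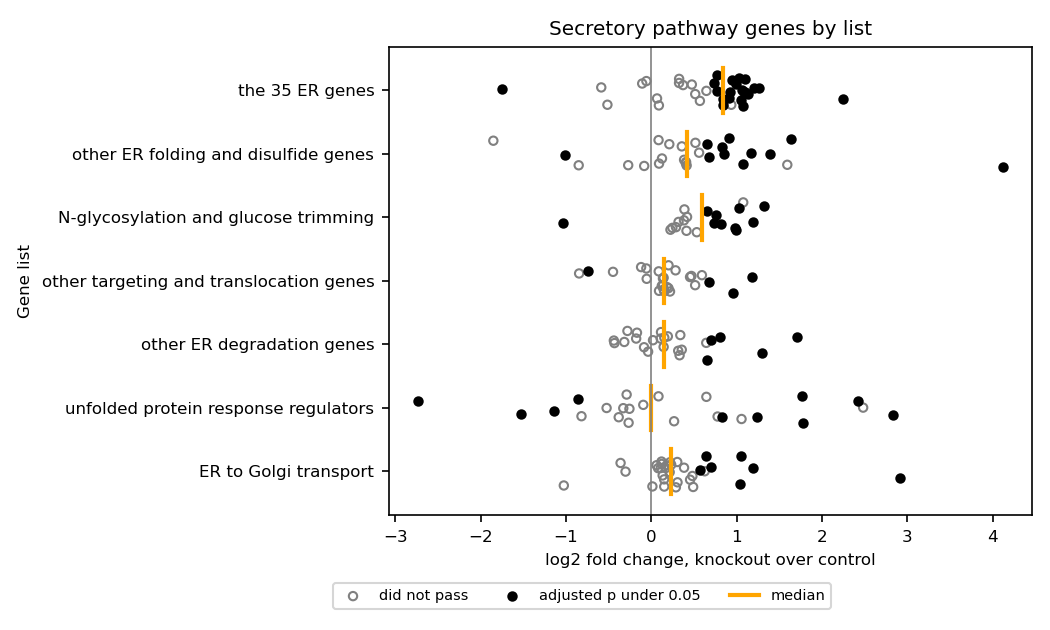
Log2 fold change (knockout over control) of the 35 ER genes and of 6 further lists of secretory pathway genes; filled points passed an adjusted p of 0.05 in edgeR, and bars mark medians. Medians are 0.84 for the 35 genes, 0.59 for N-glycosylation and -0.01 for unfolded protein response regulators.

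Per kilobase of annotated exon, the levels of the 35 genes spanned about 2 orders of magnitude. On this scale (RPKM), the CPM divided by the GENCODE exon length in kilobases, Hsp90b1 was highest in knockouts, at 311 and 460.1 RPKM, against 250 and 153 RPKM in controls. Calr, Pdia3 and Hspa5 followed, with knockout means of 283, 263 and 263 RPKM. In controls Herpud1 had the highest mean level, at 208 RPKM, next to 201 RPKM for Hsp90b1, and the libraries of the pair overlapped. Syvn1 was at 33.7 and 24.96 RPKM in knockouts and 99.97 and 96.9 RPKM in controls. Ern1, in spite of its rise, stayed among the lower genes, at 11.6 and 12.5 RPKM in knockouts and 2.95 and 2.11 RPKM in controls. Derl3 and Derl2 were the lowest in knockouts, at 4.07 and 6.01 RPKM on average.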

How the data were processed

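Messenger RNA was measured by RNA sequencing of sorted pro-B cells from 2 knockout and 2 control mice, with the NEBNext low input kit per the labels' protocols. Per the submitters' processing notes the tools were featureCounts, Subread 2.0.0, STAR 2.7.4a, DESeq2, SAMtools 1.10 and deepTools 3.3.2, and the builds mm10 and GRCm38; sources used here do not give the annotation, the strand setting or the handling of multiply aligned reads. Exons of 12 of the 35 genes overlap another annotated gene, in 7 cases a protein-coding one.

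The authors deposited raw counts for 24411 symbols, and normalized signal values, equal to the counts times 1 factor per library, which served 1 alternative. Counts were analysed with edgeR 4.0.16 in R 4.3.3: filterByExpr (minimum count 10, total 15) kept 13507 genes, TMM scaling, quasi-likelihood F test over all 4 libraries, Benjamini-Hochberg adjustment over all genes, threshold 0.05. An SE is the absolute log2 fold change divided by the root of F. The procedure was also run on simulated counts with a dispersion common to all genes. That setting lacks the gene-by-gene spread of these data, so it does not vouch for the calls. Members and lists were chosen with earlier results of these data known. Named genes outside the 35 are Tnpo3, Xbp1, Atf4, Ddit3 and Eif2ak3, the 4 genes of lowest adjusted p in each list among those called, and genes shared with a marker list, of which 1 is not reported here; Sec11a and overlapping neighbours were added after values were seen. Alternatives included DESeq2 1.42.0 and limma 3.58.1. Replicates are separate mice. The biological coefficient of variation was 0.251, and 3 counts in a library correspond to 0.0743 to 0.113 CPM.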

Additional observations from a re-analysis of the deposited data

How the results depend on the processing

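The 35 genes were refitted under 12 alternatives: limma-voom, DESeq2, its size factors in edgeR, unscaled totals, a stricter filter (a mean of 50 counts, and 1 CPM in 2 libraries) and none, sex as a block, limma on the authors' normalized values (log2, pseudocount 1), and each library left out in turn. Of 420 values, 413 kept their direction and 370 also their side of the threshold. Manf, Syvn1, Sec61a1, Sec61b, Ssr4 and Ern1 passed in all 12. With a library left out, the remaining library of that genotype is assumed to vary like the others; the number of ER genes called higher then ranged from 5 to 23 (20 with all libraries) and of those called lower from 1 to 3 (1). Other secretory genes called higher ranged from 11 to 37 (40) and lower from 2 to 12 (7), and all genes from 747 to 1649 higher (1524) and from 530 to 1580 lower (1468). On the authors' normalized values 13 ER genes, 20 other secretory genes and 894 of all genes were called higher, and 804 of all genes lower. With sex as a block 25 ER genes were called higher, the 5 added being Hspa5, Hsp90b1, Dnajb11, Sdf2l1 and Atf6, and 1 lower. Of the other secretory genes the block called 55 higher and 13 lower. Of all genes it called 2137 higher and 2186 lower, against 1524 and 1468 without the block. DESeq2 called 23 ER genes higher and 1 lower, and 49 other secretory genes higher and 12 lower. Of all genes DESeq2 called 2056 higher and 1901 lower. With a library left out, directions changed for Dnajb9 (-0.93 to 0.092), Edem1 (-0.34 to 0.32), Derl3 (-0.60 to 0.40) and Sec11c (-0.20 to 0.48). The cause of these differences was not tested. The median log2 fold change of the 35 genes ranged from 0.67 to 0.92. Summed levels by role moved by less than 1 SD with total counts in place of TMM. No mouse number occurs in both genotypes, so samples were paired only by sex as read from the counts. With 2 mice per genotype an exact permutation test of a single value could not go below a two-sided p of 0.333, so summed levels and ratios carry no test.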
